A study of Mus musculus with 8 samples.

Results

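The genes described are the collagen chain genes, which encode the chains of the collagen family of matrix proteins. They were taken from the array's annotation as every gene whose only symbol was Col, a number, the letter a and a number, with the probe set of highest mean for each gene. This gave 44 of the 19938 measured genes, and all 44 also carry such a symbol in RefSeq's gene table. By the usual grouping of collagens there were 11 fibrillar, 6 basement membrane, 9 fibril-associated (FACIT), 6 beaded filament, 3 short chain network, 4 transmembrane and 2 multiplexin genes, and 3 others (Col7a1, Col26a1 and Col28a1).

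The RNA came from 1 mouse clone of pre-iPSCs, named MaF pre-iPSC9P2 in the labels, which are partly reprogrammed cells that have not reached pluripotency. All cultures were kept on feeders in mESC medium, the medium of mouse embryonic stem cells, without vitamin C (Vc-, 4 arrays) or with vitamin C at 50 µg/ml from day 2 onwards (Vc+, 4 arrays). Each treatment has 1 array on each of days 3, 4, 5 and 6, so a difference on a single day has no replicate. Whether each day had a culture of its own is not stated in the labels. The p-values therefore cover the spread among these 8 arrays alone, and that spread may be technical. It also takes in any real change of the vitamin C difference from day to day or, for slopes, any departure from a straight line. Feeder cells were removed after trypsin treatment and before lysis, and feeders of the fibroblast type are themselves rich in collagen RNA.

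Collagens form triple helices from chains in which glycine recurs at a fixed spacing. Prolyl and lysyl hydroxylases modify the chains in the endoplasmic reticulum, and these enzymes need ascorbate, the absence of which leaves collagen unstable in scurvy. Type I, III and V collagens form the fibrils of connective tissue, type IV the sheet of basement membranes, and type XVIII is a proteoglycan of basement membranes whose C-terminal fragment is endostatin. The arrays measure RNA only, not hydroxylation or protein.

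The cells' state was checked on marker genes in all 8 arrays. Pou5f1, a defining transcription factor of pluripotent cells, lay between 11.9 and 12.1 (log2 value) on all 8 arrays. Its level is not taken as a sign of pluripotency, and whether this RNA came from the cells' own gene was not tested. Nanog was higher with vitamin C on each day, as was the mean of 14 pluripotent markers. Thy1, a fibroblast surface marker, ran from 7.03 on day 3 to 5.97 on day 6 in untreated cells and from 6.51 to 5.97 with vitamin C. The mean log2 value of 23 feeder or fibroblast markers that are no collagens was 6.75, 6.68, 6.32 and 5.89 on days 3 to 6 in untreated cells and 6.33, 6.25, 6.01 and 5.70 with vitamin C. In RNA of a whole culture, fewer cells of a type and less RNA per cell cannot be told apart. The 8 arrays had medians from 4.33 to 4.40, and no array repeated another.

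RefSeq's promoter table (build GRCm38.p6) held 35 of the 44 genes, and Col5a2, Col1a1 and Col12a1 were not among them. The 250 bases before the annotated start are shown for 4 genes described below, as examples of both directions of difference, whose window lies in no annotated gene. Col3a1 is among the 8 largest vitamin C differences but passed no test. Col1a2 and Col8a1 were lower with vitamin C on all 4 days and Col3a1 on days 3 to 5, while Col18a1 was higher on days 4 to 6. Capitals mark matches on either strand to CCAAT, to TATAAA, to GGGCGG and to TGANTCA, and none of the matches shown overlap. Each sequence runs 5′ to 3′ along the gene's strand.
Col1a2, chr6:4505368-4505617, plus strand: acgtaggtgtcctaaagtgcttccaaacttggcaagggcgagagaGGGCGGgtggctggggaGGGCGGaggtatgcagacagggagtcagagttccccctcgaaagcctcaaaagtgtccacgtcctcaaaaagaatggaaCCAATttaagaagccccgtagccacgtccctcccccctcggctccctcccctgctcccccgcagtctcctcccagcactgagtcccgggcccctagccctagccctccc
Col3a1, chr1:45311288-45311537, plus strand: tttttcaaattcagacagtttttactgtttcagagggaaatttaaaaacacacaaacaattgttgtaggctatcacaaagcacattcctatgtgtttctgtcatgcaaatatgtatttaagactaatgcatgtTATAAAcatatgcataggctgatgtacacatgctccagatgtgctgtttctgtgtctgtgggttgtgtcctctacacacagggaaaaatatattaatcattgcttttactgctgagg
Col8a1, chr16:57754738-57754987, minus strand: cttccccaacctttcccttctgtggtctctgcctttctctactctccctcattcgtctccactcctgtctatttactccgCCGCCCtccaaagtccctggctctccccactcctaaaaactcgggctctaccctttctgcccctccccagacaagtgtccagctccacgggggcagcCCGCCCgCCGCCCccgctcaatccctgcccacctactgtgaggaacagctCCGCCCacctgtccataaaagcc
Col18a1, chr10:77166531-77166780, minus strand: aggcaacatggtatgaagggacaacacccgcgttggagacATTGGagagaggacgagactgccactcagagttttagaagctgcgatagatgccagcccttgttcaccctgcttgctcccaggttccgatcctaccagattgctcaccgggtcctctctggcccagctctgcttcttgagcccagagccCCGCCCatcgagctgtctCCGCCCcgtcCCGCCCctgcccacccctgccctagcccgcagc

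The 4 windows differ in composition and in motifs. That of Col3a1 had 35.2% G and C and 1 match to TATAAA, and the others had 62.0% (Col1a2), 60.8% (Col8a1) and 62.0% (Col18a1), against a median of 52.4% over all windows of the table. GGGCGG, the core of GC boxes, matched 2 times in Col1a2, 4 times in Col8a1 and 3 times in Col18a1. CCAAT matched once each in Col1a2 and Col18a1. Over all windows of this length, 33.8% held CCAAT, 12.4% TATAAA, 32.7% GGGCGG and 6.7% TGANTCA. Of the 38 windows of the 35 collagen genes, 13 held CCAAT, 5 TATAAA, 22 GGGCGG and 1 TGANTCA. No motif of the 4 was common to the windows of Col1a2, Col3a1 and Col8a1.

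The first comparison asked which collagen genes differed with vitamin C over all 4 days at once. The 8 largest differences were all downwards with vitamin C, by 0.46 to 0.73 on the log2 scale: 6 in fibrillar genes (Col5a1, Col5a2, Col1a1, Col1a2, Col3a1 and Col11a1), 1 in the short chain gene Col8a1 and 1 in the FACIT gene Col12a1. Only Col5a2 passed the test over all genes and the other 7 did not, while Col18a1 was the largest difference upwards at 0.45. The test was limma's moderated test with day as a factor, and the threshold was an adjusted p of 0.05 over 19938 genes. It called 1 of 44 collagens, against 0.752% of all genes. That gene was lower, as 0.216% of all genes were, and 0 collagens were called higher, against 0.537% of all genes. Without the adjustment, 14 of 44 had a p under 0.05 in limma, against 12.7% of all genes. Of these 12 were lower, against 6.52% of all genes, and 2 were higher, against 6.18%. With vitamin C, 39 of 44 collagens had a mean difference below 0, where 51.8% of all genes did. The median difference was -0.14 over the 44 genes and -0.01 over all genes. The 23 feeder or fibroblast markers had a median of -0.37, with 20 below 0 and 1, Vim, past the threshold. The 7 smooth muscle markers had a median of -0.75, with 7 below 0 and 3 past the threshold: Acta2 (-1.12), Actg2 (-0.95) and Tagln (-0.72). Their mean lay between 5.67 and 6.81 in untreated arrays and between 5.19 and 6.22 with vitamin C, and their part in the collagen differences was not tested. When the 23 feeder or fibroblast markers, as 1 mean per array (the marker mean), stood in for day in the model, 0 collagens passed in limma. The median was then -0.09 against 0.00 over all genes. In that model 35 of 44 collagens lay below 0 and 3 had an unadjusted p under 0.05 in limma. The matching shares of all genes were not computed for that model, so these counts cannot be set against them. The marker mean was itself lower with vitamin C on each day, so it takes up part of the vitamin C difference. Smaller estimates in that model, here and below, are therefore partly built in, and their cause was not tested.

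**Figure D1:**
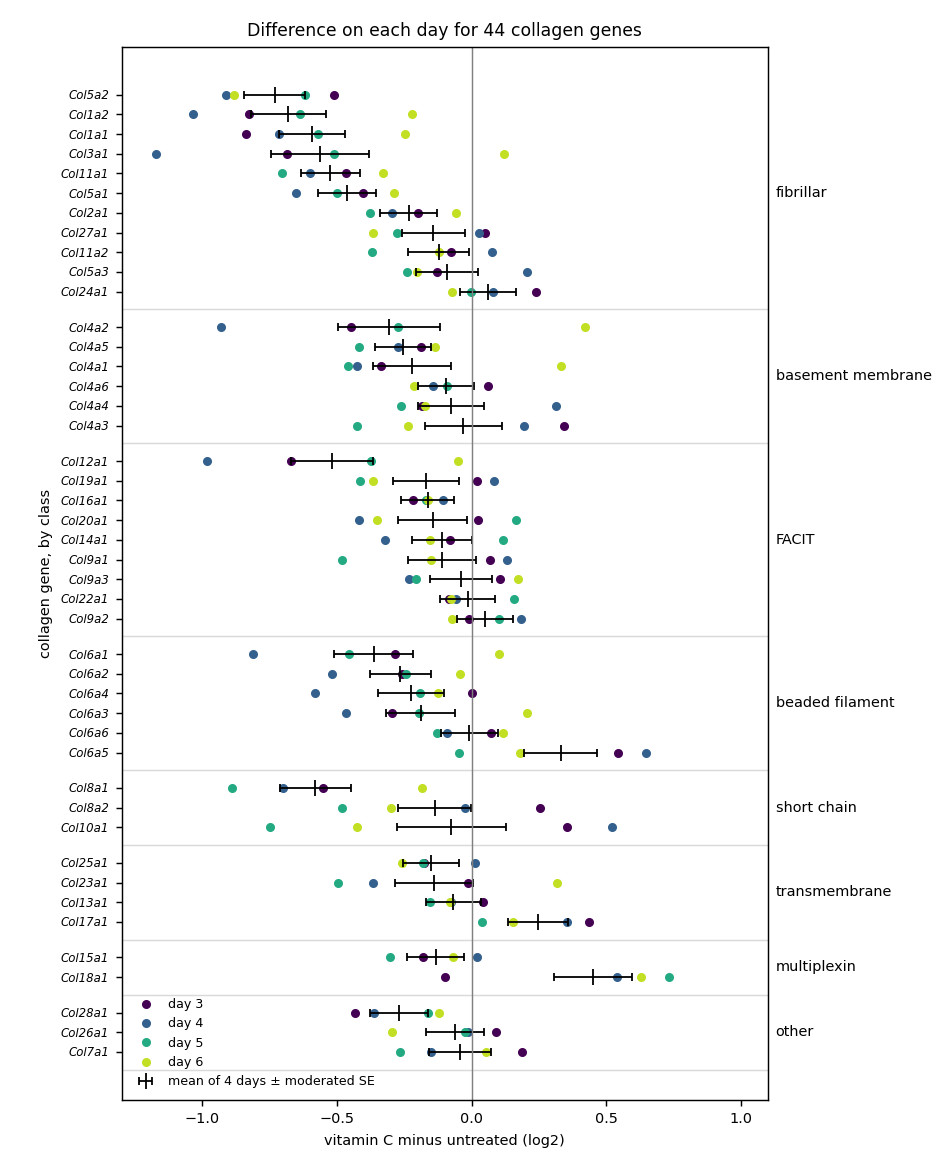
Difference in log2 value between vitamin C and untreated cells on the x axis for the 44 collagen genes on the y axis, grouped by class, with 1 point for each of 4 days. Black bars are the mean over days with limma's moderated standard error. Col5a2 lies below -0.5 on all 4 days, and Col18a1 lies above 0.5 on days 4 to 6.

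Col5a2 encodes a chain of type V collagen, which sits inside type I fibrils and sets their diameter. Its log2 values on days 3, 4, 5 and 6 were 7.47, 7.48, 7.18 and 7.08 in untreated cells and 6.96, 6.57, 6.56 and 6.20 with vitamin C. All 4 values with vitamin C lay below all 4 untreated values. Over days the difference was -0.73 ± 0.11 (moderated SE, limma adjusted p = 0.0297), a 1.66-fold lower level, and it was lower in 4 of 4 days with an SD of 0.20 between days. The call was lost without day 4 (-0.67, adjusted p = 0.184), without day 5 (-0.77, adjusted p = 0.143) and without day 6 (-0.68, adjusted p = 0.0768). It was also lost with day left out of the model (adjusted p = 0.198) and with the marker mean in place of day (-0.51, adjusted p = 0.172). Non-overlap in this direction was also seen in Col28a1, a von Willebrand factor domain collagen, with untreated values from 3.78 to 3.97 and vitamin C values from 3.53 to 3.66. These 2 of 44 genes compare with 2.61% of all genes, and 0 collagens had all values with vitamin C above all untreated ones, against 2.1%.

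Its partner chain Col5a1 read 6.29, 6.42, 6.12 and 5.73 on days 3 to 6 in untreated cells. With vitamin C it read 5.89, 5.77, 5.62 and 5.44. Col5a1 was lower on each day, but the untreated value of day 6 fell among those with vitamin C, and the difference of -0.46 ± 0.11 did not pass (limma adjusted p = 0.102). It passed in 1 of 13 alternative settings, with genes below the median mean left out (limma adjusted p = 0.0478). The third type V gene, Col5a3, differed by -0.09, with daily differences on both sides of 0.

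Type I collagen, the main fibril of skin and bone, is built from Col1a1 and Col1a2. Col1a1 read 10.2, 9.96, 9.33 and 8.71 on days 3 to 6 in untreated cells and 9.38, 9.25, 8.75 and 8.47 with vitamin C. Col1a2 read 9.96, 9.82, 9.23 and 8.38 in untreated cells and 9.13, 8.79, 8.59 and 8.16 with vitamin C. Both chains were lower with vitamin C on each day, and the groups overlapped because both also dropped from day to day. The difference of Col1a1 narrowed from -0.84 on day 3 to -0.25 on day 6, and that of Col1a2 from -0.83 to -0.22, with its widest value of -1.03 on day 4. Over days they were -0.59 ± 0.12 for Col1a1 and -0.68 ± 0.14 for Col1a2, and neither passed (limma adjusted p = 0.0752 and 0.0744). Without day 6, Col1a2 passed with -0.83 (limma adjusted p = 0.0381). Both also passed when the dimmer genes were left out (limma adjusted p = 0.0394 and 0.0404) and under eBayes options trend and robust (limma adjusted p = 0.00882 and 0.0141). With the marker mean in place of day the differences were -0.05 (Col1a1) and -0.12 (Col1a2).

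Col3a1, the type III chain that accompanies type I in elastic tissues, lies on chromosome 1 as Col5a2 does. It read 7.71, 8.10, 7.29 and 6.20 on days 3 to 6 in untreated cells and 7.03, 6.93, 6.78 and 6.32 with vitamin C. Its difference went from -1.17 on day 4 to 0.12 on day 6, when the difference of Col5a2 was -0.88. Over days Col3a1 differed by -0.56 ± 0.18 (limma adjusted p = 0.23), and by 0.00 with the marker mean in place of day.

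Col11a1, a fibril-nucleating chain of cartilage and other tissues, read 5.37, 5.27, 5.14 and 4.72 on days 3 to 6 in untreated cells. With vitamin C it read 4.90, 4.67, 4.43 and 4.40. It was lower on each day by 0.33 to 0.70, and the mean difference of -0.53 ± 0.11 did not pass (limma adjusted p = 0.0752). Col11a1 passed in 3 of 13 alternative settings: with the dimmer genes left out, with day as a number and at a threshold of 0.1. With the marker mean in place of day its difference was -0.29. Col2a1, the main collagen of cartilage, differed by -0.23 and was lower on each day, beside 9 chondrocyte markers with a median of 0.00. The remaining fibrillar genes Col11a2, Col24a1 and Col27a1 differed by -0.12, 0.06 and -0.14, and their daily differences had both signs. In the fibrillar class 10 of 11 genes lay below 0, with a median of -0.46.

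**Figure D2:**
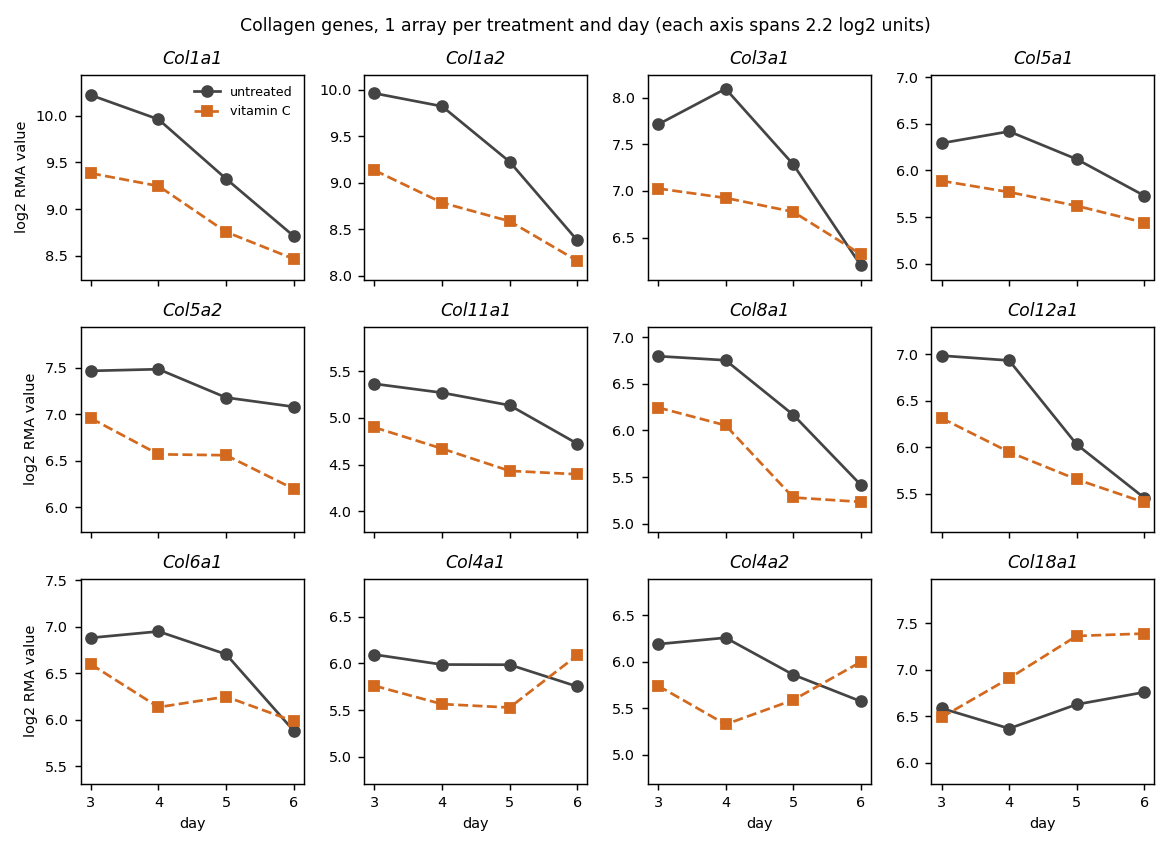
Log2 value on the y axis against day on the x axis for 12 collagen genes, with 1 array for each treatment and day and no error bars. Each panel spans the same width of 2.2 log2 units around its own level. The curves of Col5a2 stay apart on all days, those of Col1a1, Col1a2, Col3a1, Col8a1 and Col12a1 approach each other by day 6, those of Col4a1 and Col4a2 cross, and Col18a1 lies higher with vitamin C from day 4.

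Outside the fibrillar class, Col8a1 and Col12a1 had the largest differences. Col8a1 encodes a short chain collagen of vessel walls and of the Descemet membrane. It read 6.80, 6.75, 6.17 and 5.42 on days 3 to 6 in untreated cells and 6.25, 6.05, 5.28 and 5.23 with vitamin C. The difference was widest on day 5 at -0.89, and over days it was -0.58 ± 0.13 (limma adjusted p = 0.0918). Col8a1 passed in 2 of 13 alternative settings: under eBayes options trend and robust and at a threshold of 0.1. Of the other short chain genes, Col8a2 read 4.48, 4.87, 5.02 and 5.01 on days 3 to 6 without and 4.74, 4.84, 4.54 and 4.71 with vitamin C. Col10a1, the collagen of hypertrophic cartilage, was higher by 0.35 and 0.52 on days 3 and 4 and lower by -0.75 and -0.42 on days 5 and 6.

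Col12a1 belongs to the FACITs, which lie on fibril surfaces. It read 6.98, 6.93, 6.03 and 5.46 on days 3 to 6 in untreated cells and 6.31, 5.95, 5.66 and 5.41 with vitamin C. The groups came together on day 6, and the difference over days was -0.52 ± 0.15 (limma adjusted p = 0.182). With the marker mean in place of day its sign turned, to 0.04. Col16a1, another FACIT, read 5.35, 5.12, 5.24 and 5.05 without and 5.13, 5.01, 5.07 and 4.89 with vitamin C, a small difference of -0.16 that was present on each day with an SD of 0.05. The remaining FACIT genes Col9a1, Col9a2, Col9a3, Col14a1, Col19a1, Col20a1 and Col22a1 had differences from -0.17 to 0.05, and none of them kept 1 sign on all days.

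Type VI collagen forms beaded filaments around cells, from the chains of Col6a1, Col6a2 and Col6a3. Col6a1 read 6.88, 6.95, 6.70 and 5.88 on days 3 to 6 in untreated cells and 6.60, 6.13, 6.25 and 5.98 with vitamin C. Col6a2, its neighbour chain on chromosome 10, read 6.12, 6.15, 5.94 and 5.59 without and 5.87, 5.64, 5.70 and 5.55 with vitamin C. In both genes the difference was widest on day 4, at -0.81 and -0.52, and close to 0 on day 6, at 0.10 and -0.04. Col6a3 followed the same course, from -0.46 on day 4 to 0.20 on day 6. Means over days were -0.36, -0.27 and -0.19, and none passed (limma adjusted p from 0.345 to 0.622). Col6a4 and Col6a6 differed by -0.22 and -0.01, and Col6a5 by 0.33 with a range of 1.58 over the 8 arrays.

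Type IV collagen is the network of basement membranes, and Col4a1 and Col4a2 encode its most widespread form. The genes start head to head, with RefSeq promoter starts 21 bases apart. Col4a1 read 6.10, 5.99, 5.99 and 5.75 on days 3 to 6 in untreated cells and 5.76, 5.56, 5.53 and 6.09 with vitamin C. Col4a2 read 6.19, 6.26, 5.86 and 5.58 without and 5.74, 5.33, 5.59 and 6.00 with vitamin C. Both were lower with vitamin C on days 3 to 5 and higher on day 6, by 0.33 and 0.42. Neither passed over days (-0.22 and -0.31, limma adjusted p = 0.61 and 0.576). The basement membrane linker gene Nid1 had daily differences of -0.72, -1.06, -0.13 and 0.67 and did not pass either. Of 12 markers of parietal or primitive endoderm, cells rich in type IV collagen, 3 rose and 1 fell with day in vitamin C cells. Past the same threshold 5.25% of all genes rose and 3.39% fell. Of the 12 slopes 6 lay below 0, against 57.1% of all genes, and 6 above, with a median of 0.00. Gata4, Gata6 and Sox17 rose by 0.67, 0.48 and 0.47 per day (limma adjusted p = 0.00374, 0.00393 and 0.0023), and Thbd fell by 0.32 (limma adjusted p = 0.0181). These 4 genes moved the same way in untreated cells, where Col4a1 and Col4a2 were lowest on day 6. From day 3 to day 6 untreated Gata4 went from 4.16 to 5.21, Gata6 from 4.58 to 5.44, Sox17 from 3.58 to 4.20 and Thbd from 7.18 to 5.62. Of the 12 untreated slopes, 0 rose (0.782% of all genes) and 1 fell (0.968%) past the threshold, with a median of 0.06. The mean of the list lay between 5.10 and 5.22 in untreated arrays and between 5.09 and 5.34 with vitamin C, and its part in the day 6 values of Col4a1 and Col4a2 was not tested. The tissue-restricted chains Col4a3, Col4a4, Col4a5 and Col4a6 differed by -0.03, -0.08, -0.25 and -0.10, and of these Col4a5 alone was lower on each day.

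Col18a1, a multiplexin of epithelial and vascular basement membranes, differed in the other direction. It read 6.59, 6.37, 6.63 and 6.76 on days 3 to 6 in untreated cells and 6.49, 6.91, 7.36 and 7.39 with vitamin C. From day 4 onwards the 3 values with vitamin C lay above all 4 untreated values, while on day 3 it was slightly lower. Over days the difference was 0.45 ± 0.15 (limma adjusted p = 0.228), and without day 3 it was 0.63 and passed (limma adjusted p = 0.0495). Of 15 epithelial markers 12 lay above 0 with vitamin C, 5 of them past the threshold, and 3 lay below, with a median of 0.62. Of all genes, 0.537% were called higher and 51.8% lay below 0. Those below were Itgb4 (-0.27, lower on each day), Krt14 (-0.24) and Krt5 (-0.08). The mean of the 15 markers lay between 6.69 and 7.46 in untreated arrays and between 7.03 and 8.37 with vitamin C. The part of these markers in the result was not tested. The other multiplexin, Col15a1, read 4.55, 4.40, 4.43 and 4.40 without and 4.37, 4.42, 4.13 and 4.33 with vitamin C.

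Col17a1, the hemidesmosome collagen of skin epithelia, was the only member higher with vitamin C on all 4 days, by 0.04 to 0.44, with a mean of 0.25 ± 0.11 (limma adjusted p = 0.405). Of the other transmembrane genes, Col23a1 read 4.92, 4.93, 5.34 and 4.98 without and 4.91, 4.57, 4.85 and 5.29 with vitamin C, and Col13a1 read 4.63, 4.79, 4.81 and 4.81 without and 4.67, 4.71, 4.66 and 4.73 with it. Col25a1 differed by -0.15. Col7a1, the anchoring fibril of skin, read 5.36, 5.29, 5.35 and 5.31 without and 5.54, 5.14, 5.08 and 5.36 with vitamin C. Col26a1 read 4.90, 4.83, 4.99 and 5.15 without and 4.99, 4.81, 4.97 and 4.85 with vitamin C. In these last genes the groups overlapped and the differences over days were at most 0.15 in size.

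Seen over the family, 12 of 44 collagens were lower with vitamin C on all 4 days, against 11.1% of all genes, and 1 was higher on all 4 days, against 9.29%. The 12 were Col1a1, Col1a2, Col2a1, Col5a1, Col5a2, Col11a1, Col4a5, Col12a1, Col16a1, Col6a2, Col8a1 and Col28a1. A difference of at least 0.5 downwards was present in 6 collagens on day 3 (4.45% of all genes), 12 on day 4 (6.12%), 8 on day 5 (4.4%) and 1, Col5a2, on day 6 (5.03%). Upwards it was present in 1 (5.7%), 3 (6.51%), 1 (5.43%) and 1 (5.97%) on the same days. The share of collagens lower by this size was thus above that of all genes on days 3 to 5 and below it on day 6. The fibroblast marker median was -0.39, -0.36, -0.35 and -0.14 on days 3 to 6.

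**Figure D3:**
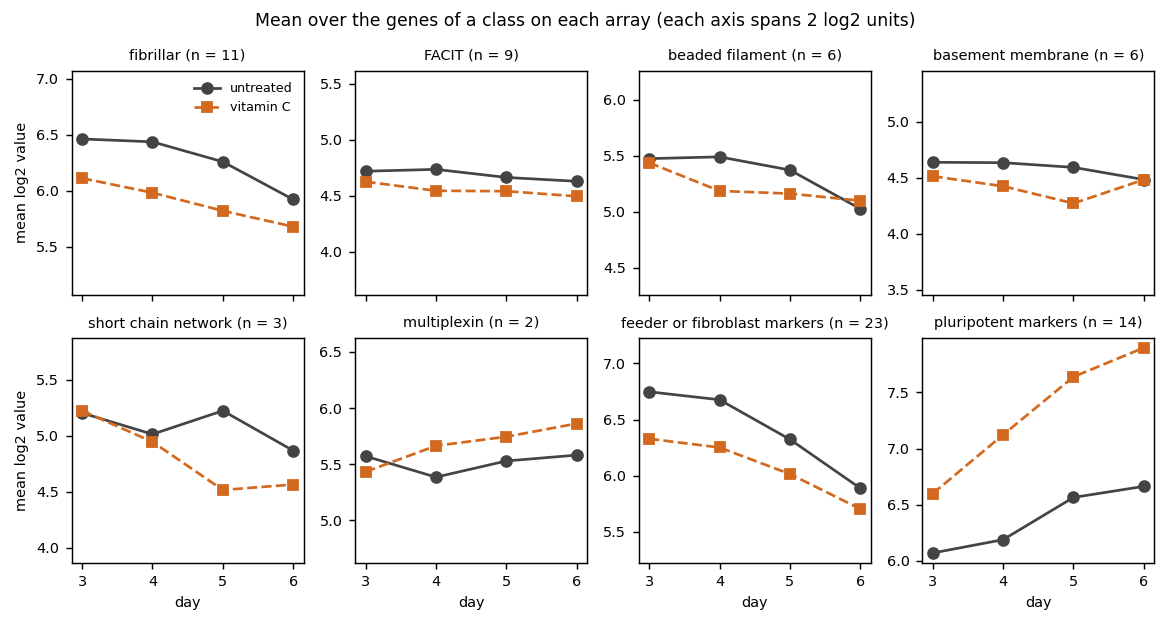
Mean log2 value over the genes of a class on the y axis against day on the x axis, for 6 collagen classes and 2 marker lists, with 1 array per treatment and day. The fibrillar mean went from 6.46 to 5.92 in untreated cells and from 6.11 to 5.68 with vitamin C, and the feeder or fibroblast markers from 6.75 to 5.89 and from 6.33 to 5.70.

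The second comparison asked how collagen RNA changed from day 3 to day 6 within each treatment, from slopes on day in 1 limma model with a slope per treatment. In untreated cells 4 of 44 collagens were called, against 1.75% of all genes. All 4 fell, against 0.968% of all genes, and 0 rose, against 0.782%. Without the adjustment 15 had a p under 0.05 in limma, against 17% of all genes, 12 of them falling (8.66% of all genes) and 3 rising (8.39%). Per day, Col12a1 fell by 0.55 ± 0.08 on the log2 scale (adjusted p = 0.00686), Col1a2 by 0.53 ± 0.08 (adjusted p = 0.00752), Col1a1 by 0.52 ± 0.07 (adjusted p = 0.00431) and Col8a1 by 0.47 ± 0.09 (adjusted p = 0.0231). Col3a1 had a slope of -0.53 ± 0.12 that did not pass (limma adjusted p = 0.0574), and its untreated value was highest on day 4. Col6a1, Col11a1 and Col5a1 had slopes of -0.32, -0.21 and -0.20, and Col5a2 of -0.15 (limma adjusted p from 0.105 to 0.27). The median slope of the 44 genes was 0.01, and 21 of 44 lay below 0, against 48.4% of all genes. Of the 23 feeder or fibroblast markers, 11 fell in the same arrays, with a median of -0.35 per day, and of the 7 smooth muscle markers 3 fell, with a median of -0.37 and 7 below 0. All 4 calls were lost without the untreated array of day 6, where the slopes were -0.48 for Col12a1, -0.45 for Col1a1, -0.37 for Col1a2 and -0.31 for Col8a1 (limma adjusted p from 0.331 to 0.69). That of Col8a1 was also lost without the untreated array of day 3 (-0.67, limma adjusted p = 0.0613) or of day 4 (-0.44, limma adjusted p = 0.0531).

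With vitamin C, 6 of 44 collagens were called, against 8.64% of all genes. Of these 5 fell, against 3.39% of all genes, and 1 rose, against 5.25%. Without the adjustment 9 had a p under 0.05 in limma, against 24.9% of all genes, 8 of them falling (13.4% of all genes) and 1 rising (11.4%). The slope was below 0 in 32 of 44, against 57.1% of all genes. Col8a1 fell by 0.38 ± 0.09 per day (limma adjusted p = 0.0232), Col1a1 by 0.33 ± 0.07 (limma adjusted p = 0.0142), Col1a2 by 0.31 ± 0.08 (limma adjusted p = 0.0307), Col12a1 by 0.30 ± 0.08 (limma adjusted p = 0.0369) and Col5a2 by 0.23 ± 0.06 (limma adjusted p = 0.0497). Col18a1 rose by 0.32 ± 0.07 per day (limma adjusted p = 0.0224), against a slope of 0.08 ± 0.07 in untreated cells. In the same arrays 6 of 23 feeder or fibroblast markers fell (median -0.20 per day), 5 of 7 smooth muscle markers fell (median -0.39, 7 below 0) and 9 of 15 epithelial markers rose. The part of these markers in the slopes was not tested. None of the 6 collagens passed without the vitamin C array of day 3 or of day 6, with adjusted p-values in limma from 0.0639 to 0.32 and from 0.0794 to 0.389. Without that of day 5 Col1a1, Col8a1 and Col18a1 still passed, and Col1a2, Col12a1 and Col5a2 did not (limma adjusted p from 0.054 to 0.0733). Col5a2 also missed the threshold without any 1 untreated array (limma adjusted p from 0.0646 to 0.0804), and Col12a1 without that of day 5 (0.0588) or day 6 (0.0513). The 2 slopes come from different arrays of the same model and share 1 estimate of the spread.

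**Figure D4:**
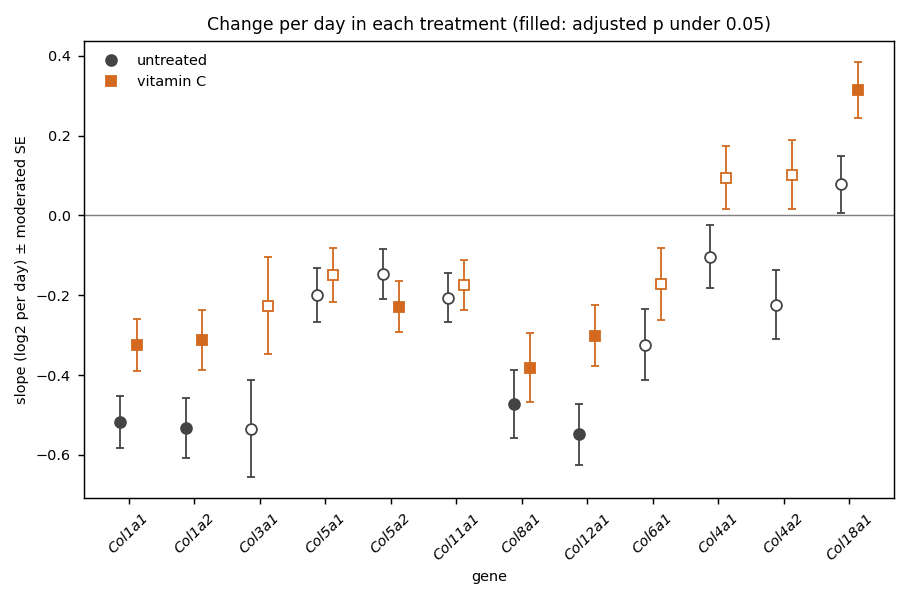
Change per day in log2 value on the y axis for 12 collagen genes on the x axis, in untreated cells (grey circles) and with vitamin C (orange squares), with limma's moderated standard errors. Filled symbols mark an adjusted p under 0.05: 4 genes in untreated cells and 6 with vitamin C, of which Col18a1 alone has a positive slope.

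The third comparison asked whether the vitamin C difference itself moved with day. By limma's contrast of the 2 slopes, 0 of 44 collagens passed, against 0.0652% of all genes, and 4 had an unadjusted p under 0.05, against 11.3% of all genes. Of these 3 moved upwards (5.52% of all genes) and 1 downwards (5.74%), and 20 of 44 estimates lay below 0, against 55.1% of all genes. The difference of Col4a2 moved upwards by 0.33 ± 0.12 per day (limma adjusted p = 0.36), that of Col12a1 by 0.25 ± 0.11 (limma adjusted p = 0.425), that of Col18a1 by 0.24 ± 0.10 (limma adjusted p = 0.411) and that of Col4a3 downwards, by -0.24 ± 0.10 (limma adjusted p = 0.389). Col1a1 had 0.19 ± 0.09 and Col1a2 0.22 ± 0.11 per day (limma adjusted p = 0.47 for both), and Col5a2 had -0.08 ± 0.09 (limma adjusted p = 0.773). The narrowing of type I collagen and the crossing of type IV were therefore not distinguishable from the spread at this number of arrays.

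Genes that make, modify and bind collagen were examined in the same fits. The shares of all genes to set beside their vitamin C counts are 0.752% passing, 12.7% with an unadjusted p under 0.05 in limma and 51.8% below 0. Of 10 genes of prolyl hydroxylation, 0 passed for the vitamin C difference while 6 had an unadjusted p under 0.05 in limma, and all 10 lay below 0 with a median of -0.40. P4ha1 and P4ha2, catalytic subunits of prolyl 4-hydroxylase, had differences of -0.91 and -1.20 on day 3 and of -0.14 and -0.10 on day 6. In vitamin C cells P4ha1 rose by 0.56 ± 0.08 per day (limma adjusted p = 0.0023), and so did the lysyl hydroxylase gene Plod2 by 0.32 ± 0.06 (limma adjusted p = 0.0149). These 2 slopes ran against the slopes of type I collagen in the same arrays. In untreated cells P4ha1 also went up, from 7.91 on day 3 to 8.65 on day 6, and Plod2 read 8.08 and 8.16 on those days. Of 5 lysyl hydroxylase and glycosyltransferase genes, 0 passed for the vitamin C difference, with 1 unadjusted p under 0.05 in limma and a median of -0.15.

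In folding and export, 0 of 11 genes passed, with 1 unadjusted p under 0.05 in limma and a median of -0.19. Serpinh1, the collagen chaperone, differed by -0.26 and fell by 0.30 ± 0.08 per day with vitamin C (limma adjusted p = 0.0401). It also went down in untreated cells, from 6.56 on day 3 to 5.70 on day 6, against 6.33 to 5.60 with vitamin C. In propeptide processing 0 of 8 passed, with 3 unadjusted p-values under 0.05 in limma. Lox, the lysyl oxidase that starts collagen cross-links, read 8.73, 8.64, 7.62 and 6.75 on days 3 to 6 in untreated cells and 7.43, 7.37, 6.38 and 5.94 with vitamin C. Lox was lower with vitamin C on each day, by 1.16 ± 0.12 over days (limma adjusted p = 0.00721). The other 4 of 5 cross-linking genes did not pass. Of 11 fibril partners Fbln2, a fibulin, was lower with vitamin C by 0.81 ± 0.10 (limma adjusted p = 0.0161). The other 10 did not pass, and the list had a median of -0.39.

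Among 10 collagen receptors, Adgrg1, an adhesion receptor that binds type III collagen, was higher with vitamin C by 0.97 ± 0.14 (limma adjusted p = 0.0225). The other 9 did not pass. The discoidin domain receptor Ddr2 differed by -0.70 (limma adjusted p = 0.0699). Of 10 genes of degradation, Timp3, a protease inhibitor held in the matrix, was lower with vitamin C by 1.03 ± 0.12 (limma adjusted p = 0.00982). All 10 lay below 0, with Mmp8 at -0.0024. Of 15 basement membrane partners 0 passed, with 5 unadjusted p-values under 0.05 in limma. Of 17 genes of collagen transcription, Tgfb3 alone passed, lower with vitamin C by 0.70 ± 0.12 (limma adjusted p = 0.0392), and the list had a median of -0.08. Some of these genes, such as Ddr2, are also on the list of feeder or fibroblast markers, whose median was -0.37.

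**Figure D5:**
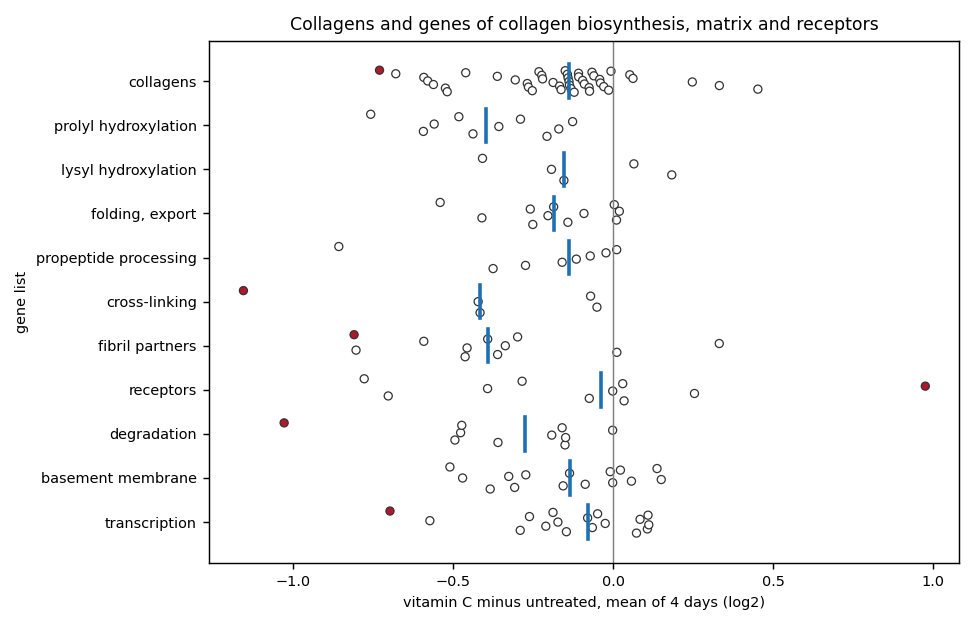
Mean difference over 4 days between vitamin C and untreated cells (log2, x axis) for each gene of the collagen family and of 10 related lists (y axis). Red points passed an adjusted p of 0.05, and blue bars are the medians of the lists, which run from -0.42 for cross-linking to -0.04 for receptors.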

How the data were processed

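The deposited table held log2 values of 28853 probe sets on 8 Affymetrix whole-transcript arrays, which the authors had made in Partek by RMA, as the submitters' processing notes say. Which version of Partek was used is not stated there. The scale was taken as log2 because the values reach 13.8. Per the labels' protocols, 100 ng of total RNA were labelled per array. RMA values of different probe sets carry their own probe effects. Means were therefore compared between probe sets only to choose 1 per gene, to pick members to show, to leave out dimmer genes and to point out low values. The table used has no detection calls, so whether members of low value were expressed was not tested. Such members include Col28a1 and Col17a1, with means of 3.74 and 4.62 over the 8 arrays, against a median gene mean of 4.70.

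Of the probe sets 21789 had 1 gene symbol, which gave 19938 genes with the probe set of highest mean. Tests were limma 3.58.1 in R 4.3.3, two-sided, with Benjamini-Hochberg adjustment over all genes. The vitamin C effect had day as a factor (3 residual degrees of freedom, 6.03 prior). Slopes and their contrast came from a model with a slope per treatment (4 residual, 6.43 prior). The pairing of same-day arrays rests on the day in the labels. Over genes the 2 arrays of a day deviated together from the means of their treatments, with correlations of 0.371 (day 3), 0.180 (day 4), 0.125 (day 5) and 0.475 (day 6). A time course shared by both treatments also gives positive values here, so these correlations cannot show a pairing beyond it. The fits were checked on simulated data.

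The members and gene lists were chosen with earlier results of these data known. Values of all 8 arrays are given for members past 0.05 in any comparison, for the 2 with the highest mean of each class and for the 8 largest vitamin C differences. Of the other lists the counts are given, with up to 4 named genes of smallest p in the vitamin C effect, and further genes past the threshold or of a role described, chosen after their values were seen. The lists were feeder or fibroblast, pluripotent, endoderm, epithelial, chondrocyte, endothelial and smooth muscle markers and the 10 lists of collagen biology. Endothelial markers had 0 of 8 past the threshold for the vitamin C effect in limma (3 unadjusted p-values under 0.05), endoderm markers 0 of 12 (2), chondrocyte markers 0 of 9 (1), pluripotent markers 4 of 14 higher and smooth muscle markers 3 of 7 lower. For that effect, 0.752% of all genes were past the threshold and 12.7% had an unadjusted p under 0.05 in limma. Promoter windows are from RefSeq. Alternatives were other normalizations, filters, probe set rules and thresholds, other uses of day, and arrays left out. Tables were made in Python 3.11.15 with pandas 2.3.3, and plots with matplotlib 3.10.9.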

Additional observations from a re-analysis of the deposited data

Results flagged for a closer look

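In 6 of 88 groups of 4 arrays (44 collagen genes in each treatment), 1 array stood far from the other 3, and chance gives about 1 in 20 such groups. The 4 arrays of a group are from different days. Col14a1 read 3.85 with vitamin C on day 4, against 4.09 to 4.13 on the other days. Col4a4 read 4.02 with vitamin C on day 4, against 3.68 to 3.72. Col25a1 read 3.75 with vitamin C on day 3, against 4.05 to 4.09. In untreated cells Col5a3 read 4.43 on day 4 (others 4.61 to 4.63), Col23a1 read 5.34 on day 5 (others 4.92 to 4.98) and Col13a1 read 4.63 on day 3 (others 4.79 to 4.81). None of these 6 genes passed a test in limma.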

How the results depend on the processing

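Counts of called genes depended on the settings more than directions did. For the vitamin C effect, the 1 called collagen and 150 called genes became 5 and 255 when genes below the median mean were left out, 4 and 376 under eBayes options trend and robust, 5 and 384 at a threshold of 0.1, and 4 and 291 with day as a number. With day left out of the model they were 0 and 17, and with the marker mean in place of day 0 and 19. Leaving out 1 day gave 0 to 2 collagens and 3 to 286 genes. For the contrast of slopes the 13 genes became 21 with quantile normalization again, 28 without those dimmer genes and 80 under these options. They became 42 at 0.1, 20 with day as a factor, and 0 to 29 with 1 array left out. Collagens stayed at 0 in limma throughout (4 at an unadjusted p under 0.05 in the main fit). For the untreated slope the 349 genes became 670 without the dimmer genes, 782 under these options and 773 at 0.1, and 8 to 530 with 1 array left out (collagens 0 to 4). For the vitamin C slope the 1722 genes became 2917 at 0.1 and 270 to 1680 with 1 array left out (collagens 0 to 6).

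Signs turned in 11 of the gene estimates, none of them past the threshold. With the marker mean in place of day the effect was 0.0396 for Col12a1 and 0.002 for Col3a1. With 1 array left out, the contrast of slopes ranged from -0.0596 to 0.0983 for Col11a1, from -0.0125 to 0.721 for Col3a1, from -0.0632 to 0.196 for Col5a1, from -0.0671 to 0.287 for Col8a1 and from -0.0139 to 0.364 for Col4a1. The vitamin C slope ranged from -0.117 to 0.261 for Col4a1 and from -0.0768 to 0.335 for Col4a2. The negative ends came without an array of day 6, and the cause was not tested. Updated symbols gave the same 44 genes. With 1 array per treatment and day, a change smaller than the spread over days cannot be resolved. Protein sequences were not used here, so the repeat features of the chains were not run.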

Other observations

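Of the 44 collagen genes, 2 had more than 1 probe set, and in 1 of them the probe sets differed in sign. The probe set of higher mean value of Col6a5, a chain of the type VI family, differed by 0.33 ± 0.14 between vitamin C and untreated cells (limma adjusted p = 0.361 over all named probe sets), and the other by -0.03 ± 0.10 (limma adjusted p = 0.95). Those of Col6a6 differed by -0.01 and -0.08. Over the 8 arrays 11 of 44 collagens spanned at least 1 log2 unit, against 11.9% of all genes, with Col3a1 spanning the most at 1.89 and Col13a1 the least at 0.18.

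The 3 collagens with an unadjusted p under 0.05 in limma when the marker mean took the place of day were Col5a2 (-0.51), Col11a1 (-0.29) and Col25a1 (-0.28), and none passed after adjustment. The share of all genes under that p was not computed for this model. Col18a1 had 0.23 (limma adjusted p = 0.637).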
